A study of Mus musculus with 36 samples.

Results

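A group of 10 genes that write, copy, oxidize or remove DNA methylation was followed in mouse knee cartilage after surgical induction of osteoarthritis (OA). They were Dnmt1, Uhrf1, Dnmt3a, Dnmt3b, Tet1, Tet2, Tet3, Tdg, Gadd45b and Idh1. They account for 10 of 23047 genes and 29 of the 30048 transcripts in the RNA count tables, and each gene is represented by its transcript with the highest mean count over the 12 RNA libraries. DNA of the same 10 loci was examined through the covered CpG cytosines in each gene body and in the 5000 bp on either side.

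In the destabilization of the medial meniscus (DMM) model, a ligament that anchors the medial meniscus is cut, and the joint then develops post-traumatic OA. Male C57BL/6J mice were operated on the right knee at 12 weeks of age, and the left knee of the same mice was left unoperated as the contralateral control. Articular cartilage of the tibial plateaus and femoral condyles was microdissected 4 or 12 weeks after surgery, and each library pooled the cartilage of 3 knees. RNA sequencing and Reduced Representation Oxidative Bisulfite Sequencing (RRoxBS) were done on different mice, with n = 3 libraries per limb and time point for each assay. Both time points had their own mice, so time after surgery, age and any difference in handling between them cannot be told apart. No operated control without meniscal destabilization was among the samples, so the effect of surgery and that of joint instability cannot be told apart either.

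DNA methylation in mammals sits mostly on cytosines that precede a guanine. Dnmt3a and Dnmt3b are the de novo methyltransferases, which place 5-methylcytosine (5mC) on unmethylated sites. Dnmt1 is the maintenance methyltransferase, which copies the pattern onto the new strand after DNA replication, and Uhrf1 recognizes the hemimethylated sites and brings Dnmt1 to them. Tet1, Tet2 and Tet3 are dioxygenases that oxidize 5mC to 5-hydroxymethylcytosine (5hmC) and further, using the 2-oxoglutarate that enzymes such as Idh1 produce. Tdg is a DNA glycosylase that cuts out the most oxidized forms for base excision repair, and Gadd45b is a stress-induced protein that has been linked to active demethylation. Adult articular chondrocytes divide rarely, whereas marrow cells, which can come along with dissected cartilage, divide often.

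The RNA libraries held 27706547 to 62737656 transcript counts, and each of the 24 DNA files listed 1435895 to 2491455 cytosines with a median coverage of 19 to 102 reads. All 20 cartilage marker genes were detected in every RNA library, with summed levels from 15687 to 63298 CPM (counts scaled to an equal effective library size). Marker genes of other tissues were also present in every library. Those of neutrophils summed to between 9666 and 44131 CPM, and those of skeletal muscle to between 106 and 25664 CPM, and no marker gene of any list was at 0 in any library. Beside cartilage cells, therefore, the libraries held RNA of other cell types, and in such bulk samples fewer cells of a type and less RNA per cell cannot be told apart. Pools are the replicates here, so p-values for RNA, locus means and sample means measure the spread between pools. The single-cytosine test below pools reads by limb, so its p-values and q-values leave that spread out unless overdispersion is added.

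Promoter sequences of Dnmt1, Dnmt3a and Uhrf1 are shown because Dnmt1 and Dnmt3a hold the called cytosines described below and Uhrf1 was the exception in promoter methylation. Each is the 250 bases before the transcript start in RefSeq on GRCm38.p6, read along the gene and 5′ to 3′, with CpG dinucleotides in capitals. The Dnmt1 stretch is chr9:20952980-20953229 (minus strand), that of Dnmt3a is chr12:3806730-3806979 (plus strand) and that of Uhrf1 is chr17:56303087-56303336 (plus strand).
Dnmt1: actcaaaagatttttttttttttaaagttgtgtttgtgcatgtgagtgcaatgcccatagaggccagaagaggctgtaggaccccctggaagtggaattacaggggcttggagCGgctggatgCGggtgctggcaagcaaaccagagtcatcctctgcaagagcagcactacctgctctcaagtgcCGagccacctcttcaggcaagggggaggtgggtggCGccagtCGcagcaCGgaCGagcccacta
Dnmt3a: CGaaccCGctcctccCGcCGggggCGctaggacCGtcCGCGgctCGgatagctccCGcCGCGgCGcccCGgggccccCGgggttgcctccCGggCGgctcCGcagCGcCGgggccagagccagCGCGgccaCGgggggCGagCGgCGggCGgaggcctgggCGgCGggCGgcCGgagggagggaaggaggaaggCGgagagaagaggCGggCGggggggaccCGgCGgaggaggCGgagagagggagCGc
Uhrf1: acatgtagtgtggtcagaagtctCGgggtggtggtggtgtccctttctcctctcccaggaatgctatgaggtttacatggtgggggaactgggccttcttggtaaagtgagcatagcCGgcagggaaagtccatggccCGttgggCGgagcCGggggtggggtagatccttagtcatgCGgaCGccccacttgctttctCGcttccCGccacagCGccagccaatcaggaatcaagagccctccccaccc

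Counted over 300 bases from 250 before to 50 after the start, Dnmt1 and Uhrf1 held 12 CpG dinucleotides each, the lowest number among the 10 genes. Tet2 held the most, with 57, followed by Dnmt3a with 46. The median of the 10 genes was 23.5 CpG dinucleotides, against 7 over 32851 promoters of the same length. The MspI site CCGG, which reads the same on both strands and at which the genome was cut for RRoxBS, occurred in 90.0% of the 10 promoters (all but that of Dnmt1) and in 52.8% of all promoters.

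Normalized by transcript length, Idh1 was the most abundant of the 10 RNAs in each of the 4 groups. Its mean was between 45.9 and 73.8 CPM per kb. Gadd45b, Dnmt1 and Uhrf1 formed the next tier, from 6.95 to 23.3 CPM per kb in group means. In control cartilage at 4 weeks, Dnmt1 (11.4 ± 4.10 CPM per kb, SD, n = 3) and Uhrf1 (11.1 ± 4.52) did not differ beyond their spread. At 12 weeks Uhrf1 (22.7 ± 3.86), Gadd45b (20.4 ± 3.12) and Dnmt1 (18.8 ± 6.95) in control cartilage overlapped as well. Dnmt3a stood next, at 2.09 to 3.61 CPM per kb, then Tet3, Tet2 and Tdg between 1.05 and 2.15. Dnmt3b (0.552 to 0.941) and Tet1 (0.245 to 0.533) were the lowest, so the de novo enzyme Dnmt3a exceeded Dnmt3b on this scale in every group.

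The main question was whether the RNA of these enzymes differed between DMM-operated and control limbs at each time point. With edgeR's quasi-likelihood test and Benjamini-Hochberg adjustment over all transcripts, none of the 10 genes passed an adjusted p of 0.05 at either time point. The test called 0.0757% of 21140 transcripts at 4 weeks and 0.00476% of 21010 at 12 weeks, so few genes of any kind passed. Unadjusted p-values fell under 0.05 for 4 of the 10 genes at 4 weeks (Tet1, Dnmt3a, Tet3 and Idh1) and for 3 at 12 weeks (Dnmt1, Idh1 and Uhrf1), against 13.7% and 16.3% of all transcripts. With DESeq2 on the same counts, which called 3.44% of transcripts at 4 weeks and 4.24% at 12 weeks, Tet1 at 4 weeks and Dnmt1 at 12 weeks passed. With the replicate number as a block, edgeR called 1.67% of transcripts at 4 weeks and 0 of the 10 genes, and 3.49% at 12 weeks, with Dnmt1 among them. Fold changes below are on the log2 scale, DMM over control. At 4 weeks 3 of the 10 were above 0 and 7 below, with a median of -0.39 (-0.02 over all genes), and at 12 weeks there were again 3 above and 7 below, with a median of -0.14 (0.02 over all genes).

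**Figure D1:**
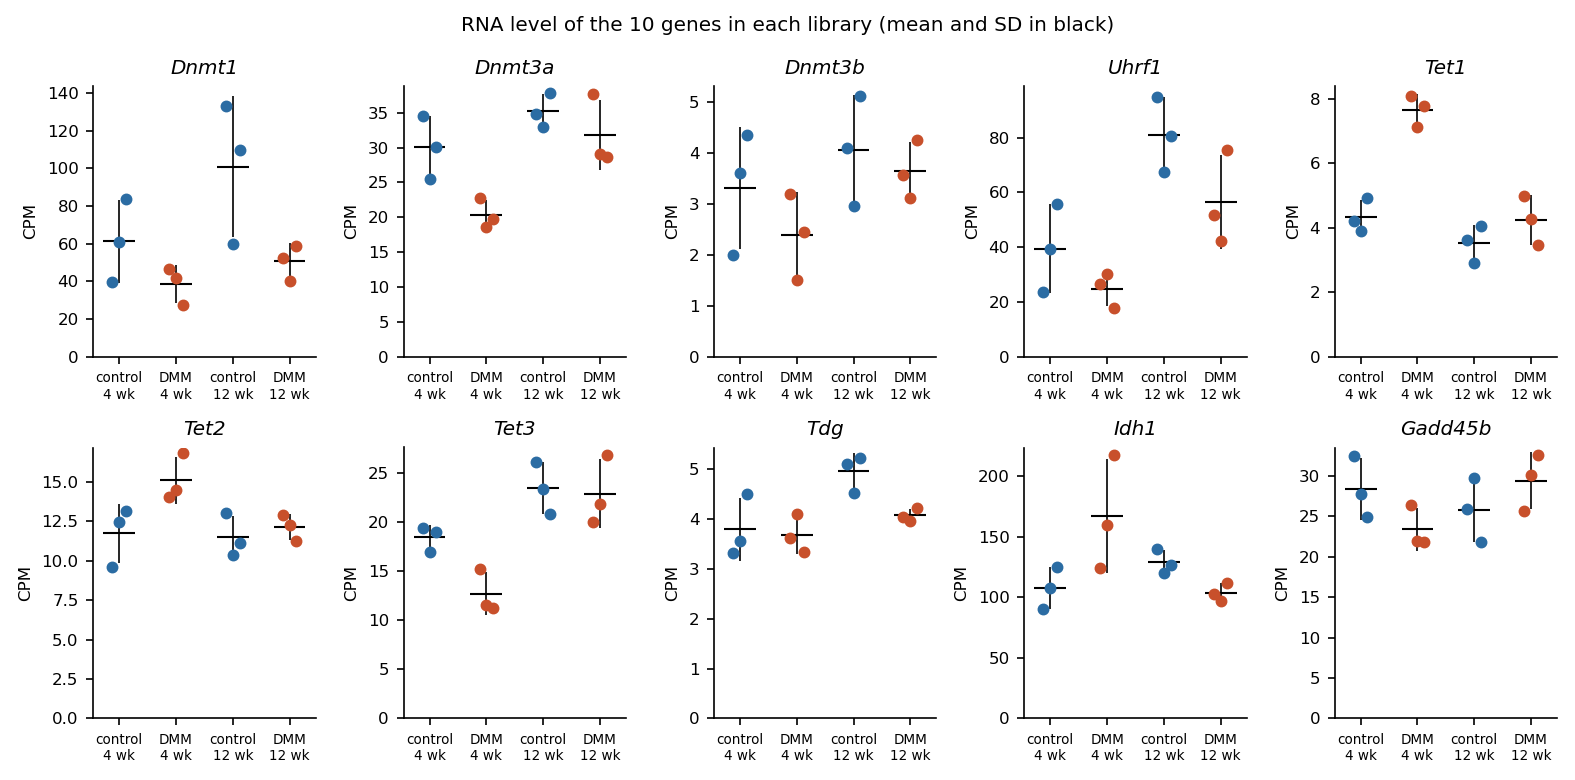
RNA level of each gene (y axis, CPM, starting at 0) in the 12 libraries, with control limbs in blue and DMM limbs in orange, 1 point per library and the mean and SD in black. Tet1 in the DMM limbs at 4 weeks (7.13 to 8.07 CPM) lies above all other libraries, and Dnmt1 at 12 weeks is lower in the 3 DMM libraries (40.4 to 59.1 CPM) than in the 3 controls (60.03 to 133.1 CPM).

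Dnmt1 was among the members with the largest differences. At 4 weeks its levels were 39.6, 61.1 and 83.6 CPM in the control libraries and 46.6, 41.9 and 27.5 CPM in the DMM libraries. At 12 weeks they were 133.1, 60.03 and 109.7 CPM in the controls and 52.7, 40.4 and 59.1 CPM in the DMM limbs. The groups overlapped at 4 weeks and did not overlap at 12 weeks, although control replicate 2 was only just above the highest DMM library. The mean at 12 weeks was 100.95 ± 37.3 CPM in control limbs and 50.7 ± 9.51 CPM in DMM limbs (SD, n = 3 each), a ratio of 0.503. The log2 fold change was -0.98 (SE 0.28), with an adjusted p of 0.233 by edgeR and 0.0247 by DESeq2. The adjusted p depended on control replicate 2, without which Dnmt1 was at -1.28 (SE 0.18, edgeR adjusted p 0.0324). Leaving out that library raised the share of all transcripts called by edgeR to 4.04%. At 4 weeks the log2 fold change of Dnmt1 was -0.68 (SE 0.32, edgeR adjusted p 0.378), and -0.91 to -0.40 when 1 library was left out.

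Uhrf1, the partner of Dnmt1, was measured at 23.5, 39.2 and 55.8 CPM in control limbs and 26.5, 30.2 and 17.8 CPM in DMM limbs at 4 weeks. At 12 weeks it was at 94.9, 67.4 and 80.5 CPM in control limbs and 51.8, 42.3 and 75.4 CPM in DMM limbs. DMM and control libraries overlapped at both time points. The log2 fold change of Uhrf1 was -0.68 (SE 0.34, edgeR adjusted p 0.387) at 4 weeks and -0.51 (SE 0.22, adjusted p 0.304) at 12 weeks. Leaving out 1 library gave -0.94 to -0.36 at 4 weeks and -0.76 to -0.34 at 12 weeks.

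Both genes of methylation maintenance are also used by dividing cells, so the markers of cell division were set beside them. At 12 weeks all 20 cell division genes were below 0, with a median log2 fold change of -0.54, and their summed level was 2767 to 3418 CPM in control limbs and 1748 to 2806 CPM in DMM limbs. At 4 weeks 14 of the 20 were below 0, with a median of -0.10 and summed levels of 1199 to 3104 CPM in control and 1519 to 2114 CPM in DMM limbs. The 12 neutrophil genes and the 12 erythroid genes were also all below 0 at 12 weeks, with medians of -0.50 and -0.45, as were 11 of the 12 B lymphocyte genes (median -0.54). The neutrophil genes summed to 26363 to 44131 CPM in control limbs at 12 weeks and to 21011 to 34446 CPM in DMM limbs, and their defining genes were at 0 in none of the libraries. In the opposite direction at 12 weeks, all 20 chondrocyte genes were above 0 (median 0.48) and 9 of 10 fibroblast genes were above 0 (median 1.09). The fibroblast genes summed to 3688 to 6456 CPM in control limbs and 7816 to 12708 CPM in DMM limbs, without overlap. The chondrocyte sums overlapped, at 15687 to 46150 CPM in control limbs and 29707 to 49314 CPM in DMM limbs. Of the 12 genes of osteoblasts and osteocytes 9 were above 0 (median 0.40), with sums of 10238 to 15952 CPM in control limbs and 16353 to 19372 CPM in DMM limbs, which did not overlap. No gene of the cell division, neutrophil, erythroid, B lymphocyte, chondrocyte, fibroblast or osteoblast lists was called by edgeR at 12 weeks, and DESeq2 called 4 cell division, 3 erythroid, 5 fibroblast and 4 osteoblast genes and 1 chondrocyte gene. The part of cell composition in the levels of Dnmt1 and Uhrf1 was not tested.

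Of the de novo methyltransferases, Dnmt3a was lower in every DMM library than in every control library at 4 weeks. Its levels there were 34.6, 25.4 and 30.1 CPM in control limbs and 22.7, 18.7 and 19.7 CPM in DMM limbs, with means of 30.0 ± 4.57 and 20.4 ± 2.11 CPM. The log2 fold change was -0.56 (SE 0.19, edgeR adjusted p 0.317). At 12 weeks Dnmt3a was at 34.8, 32.9 and 37.9 CPM in control limbs and 37.6, 29.1 and 28.7 CPM in DMM limbs, which overlapped, and the log2 fold change was -0.13 (SE 0.15, adjusted p 0.667). Dnmt3a lies opposite an antisense gene, and reads of both strands may have been counted together. Dnmt3b was low in all libraries, from 1.51 to 5.12 CPM. Its log2 fold change was -0.49 (SE 0.40) at 4 weeks and -0.14 (SE 0.26) at 12 weeks, with edgeR adjusted p-values of 0.558 and 0.8003, and its groups overlapped at both time points.

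**Figure D2:**
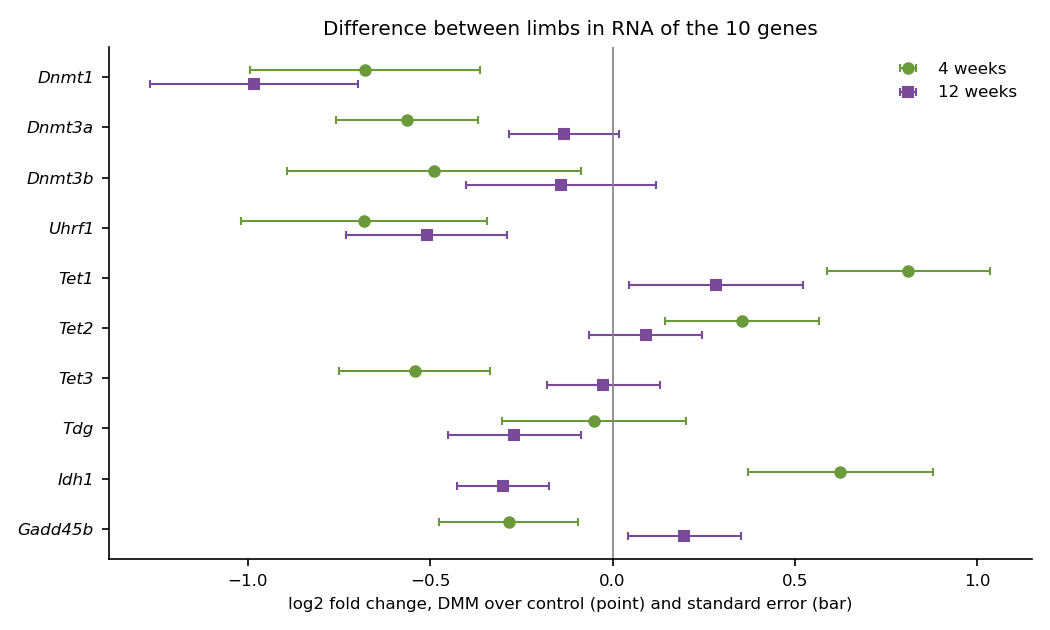
Log2 fold change of DMM over control (x axis) with its standard error for the 10 genes (y axis), at 4 weeks (green circles) and 12 weeks (purple squares). Tet1 (0.81) and Idh1 (0.62) lie highest at 4 weeks and Dnmt1 lies lowest at 12 weeks (-0.98), and Idh1 lies on opposite sides of 0 at 4 weeks (0.62) and 12 weeks (-0.30).

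The 3 dioxygenases did not share a direction at 4 weeks. Tet1 was at 4.22, 3.88 and 4.91 CPM in control limbs and 8.07, 7.13 and 7.76 CPM in DMM limbs. The DMM libraries were all above the controls, with a ratio of means of 1.76. Tet2 was at 9.63, 12.5 and 13.2 CPM in control limbs and 14.0, 14.5 and 16.8 CPM in DMM limbs, again without overlap. Tet3 had the reverse order, with 19.4, 16.9 and 18.98 CPM in control limbs and 15.2, 11.6 and 11.3 CPM in DMM limbs.

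The log2 fold change of Tet1 at 4 weeks was 0.81 (SE 0.22), with an adjusted p of 0.257 by edgeR and 0.0226 by DESeq2. It ranged from 0.74 to 0.90 over 13 alternative settings, leaving out each library included, and passed the threshold only with DESeq2. Tet2 had a log2 fold change of 0.35 (SE 0.21, edgeR adjusted p 0.437) and Tet3 of -0.54 (SE 0.21, edgeR adjusted p 0.341). Among all genes with counts, 11.2% had all DMM libraries above all controls at 4 weeks and 10.1% had all below (21.3% in either direction), and of the 10 genes here 2 (Tet1 and Tet2) were above and 2 (Dnmt3a and Tet3) below. A single gene compared this way has an exact permutation p of 0.1 (two-sided), the smallest that 3 against 3 libraries can give.

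By 12 weeks the limbs overlapped for all 3 dioxygenases. Tet1 was at 3.62, 2.89 and 4.04 CPM in control limbs and 4.99, 4.27 and 3.46 CPM in DMM limbs, a log2 fold change of 0.28 (SE 0.24, edgeR adjusted p 0.555). Tet2 had a log2 fold change of 0.09 (SE 0.16, edgeR adjusted p 0.784) and Tet3 of -0.03 (SE 0.15, edgeR adjusted p 0.950).

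Marker genes of other tissues were set beside these values at 4 weeks. All 15 skeletal muscle genes were below 0, with a median log2 fold change of -2.56, and they summed to 6805 to 25664 CPM in control limbs and 671 to 4077 CPM in DMM limbs. Of the fibroblast genes 8 of 10 were above 0 (median 1.11), with sums of 3793 to 12065 CPM in control limbs and 14632 to 20422 CPM in DMM limbs. Macrophage genes were above 0 in 10 of 11 cases (median 0.67), and 15 of 20 chondrocyte genes were below 0 (median -0.72). Of the osteoblast genes 9 of 12 were above 0 (median 0.29), with sums of 11252 to 12625 CPM in control limbs and 17722 to 18351 CPM in DMM limbs, which did not overlap. edgeR called 1 of the muscle genes and 0 of the fibroblast, macrophage, chondrocyte and osteoblast genes, and DESeq2 called 11, 3, 0, 1 and 1. No defining gene of these lists was at 0 in a library, and the part of these tissues in the values of Tet1, Tet2, Tet3, Dnmt3a and Idh1 was not tested.

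Tdg was at 3.31 to 4.51 CPM in control limbs and 3.34 to 4.10 CPM in DMM limbs at 4 weeks, with a log2 fold change of -0.05 (SE 0.25, edgeR adjusted p 0.932). At 12 weeks it was at 5.12, 4.53 and 5.23 CPM in control limbs and 4.05, 3.97 and 4.22 CPM in DMM limbs, which did not overlap. The log2 fold change of Tdg at 12 weeks was -0.27 (SE 0.18, edgeR adjusted p 0.467). Tdg has near-identical copies in the mouse genome, so its counts are uncertain. Gadd45b was at 32.5, 27.8 and 24.9 CPM in control limbs and 26.4, 21.9 and 21.8 CPM in DMM limbs at 4 weeks. Its log2 fold change was -0.28 (SE 0.19, edgeR adjusted p 0.474) there and 0.20 (SE 0.16, edgeR adjusted p 0.526) at 12 weeks, with overlapping limbs at both.

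Idh1, which supplies 2-oxoglutarate in the cytosol, was at 90.1, 107.4 and 125.1 CPM in control limbs and 123.9, 160.0 and 217.3 CPM in DMM limbs at 4 weeks. The groups overlapped by the highest control and the lowest DMM library. At 12 weeks Idh1 was at 139.5, 120.4 and 126.6 CPM in control limbs and 102.8, 96.7 and 112.0 CPM in DMM limbs, all DMM libraries being below all controls. The log2 fold change was 0.62 (SE 0.25, edgeR adjusted p 0.354) at 4 weeks and -0.30 (SE 0.13, edgeR adjusted p 0.296) at 12 weeks. All DMM libraries lay below all controls at 12 weeks for 8.32% of all genes and above them for 10.1%. Of the 10 genes here 3 lay below (Dnmt1, Tdg and Idh1) and 0 above. The 11 macrophage genes were all below 0 at 12 weeks (median -0.41), with sums of 4529 to 6244 CPM in control limbs and 3590 to 4411 CPM in DMM limbs, beside 2247 to 5128 CPM and 3422 to 7345 CPM at 4 weeks. The part of macrophages in the level of Idh1 was not tested.

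Whether the difference between limbs itself differed between time points was tested as an interaction. Idh1 had the largest interaction among the 10 genes, -0.94 on the log2 scale (SE 0.29, unadjusted p 0.00650, edgeR adjusted p 0.405). Tet1 (-0.54, SE 0.29), Tet3 (0.51, SE 0.24), Gadd45b (0.48, SE 0.24) and Dnmt3a (0.42, SE 0.23) had unadjusted p-values between 0.0554 and 0.0895. edgeR called 0 of 21618 transcripts for the interaction (0.0%), although 2656 had an unadjusted p under 0.05, and DESeq2 called 16 (0.0613%), none of them among the 10 genes. A different limb effect at 4 and 12 weeks was therefore not detectable for any of the 10 genes.

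Each limb was also compared between time points. At 12 against 4 weeks, 5 of the 10 were called by edgeR in DMM limbs, where 23.6% of all transcripts were called. Uhrf1 was higher at 12 weeks (log2 fold change 1.23, SE 0.31, adjusted p 0.0174), as were Tet3 (0.90, SE 0.17, adjusted p 0.00575) and Dnmt3a (0.69, SE 0.16, adjusted p 0.0129). Tet1 was lower at 12 weeks (-0.81, SE 0.21, adjusted p 0.0189), as was Idh1 (-0.64, SE 0.20, adjusted p 0.0389). Markers of other cell types differed between time points as well. In DMM limbs 10 of 11 macrophage genes were below 0 at 12 against 4 weeks (median -1.26, 7 called by edgeR), as were 9 of 10 fibroblast genes (median -1.12, 5 called) and all 8 adipocyte genes (median -1.02, 4 called), while all 12 neutrophil genes were above 0 (median 0.57, 2 called), as were all 15 muscle genes (median 1.20, 0 called) and 14 of 20 chondrocyte genes (median 0.47, 4 called higher and 1 lower). Of the 20 cell division genes 13 were above 0 (median 0.28, 3 called higher), and of the 12 osteoblast genes 7 (median 0.40, 2 called higher and 1 lower). Below 0 were 10 of 12 B lymphocyte genes (median -0.37, 1 called) and 7 of 10 endothelial genes (median -0.29, 3 called lower and 1 higher). The part of these cell types and of cell division in the time differences of the 10 genes was not tested.

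Of these 5, Tet3 was called in every alternative setting (adjusted p at most 0.0366). Calls of the other 4 depended on single libraries. The share of all transcripts called in each of these fits is not given here, so the losses cannot be read as particular to these genes. Without DMM replicate 2 of week 4, Dnmt3a (adjusted p 0.0698) and Idh1 (0.0759) did not pass by edgeR. Without DMM replicate 3 of week 4, Dnmt3a (0.0638), Uhrf1 (0.0997), Tet1 (0.0619) and Idh1 (0.149) did not pass. Without DMM replicate 3 of week 12, Uhrf1 (0.0717), Tet1 (0.0736) and Idh1 (0.0807) did not pass, and Idh1 did not pass without DMM replicate 1 (0.103) or 2 (0.0969) of that week either.

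In control limbs, 0 of the 10 genes were called by edgeR at 12 against 4 weeks, where 5.69% of transcripts were called. Uhrf1 came closest, with a log2 fold change of 1.07 (SE 0.31, edgeR adjusted p 0.0595), and was the only one of the 10 called by DESeq2, which called 13.9% of transcripts there. Unadjusted p-values were under 0.05 for 4 of the 10, against 25.4% of all transcripts. Without control replicate 3 of week 4, Uhrf1 (edgeR adjusted p 0.00985) and Dnmt1 (0.0482) passed, in a fit that called 21.4% of all transcripts. In control limbs all 12 neutrophil genes (median 1.06) and all 20 cell division genes (median 0.67) were above 0 at 12 against 4 weeks, of which edgeR called 2 and 0. Below 0 were 9 of 10 fibroblast genes (median -0.94, 3 called lower), 17 of 20 chondrocyte genes (median -0.74, 1 called), all 15 muscle genes (median -1.32, 0 called) and all 8 adipocyte genes (median -0.85, 1 called). The part of these cell types in the values of Uhrf1 and Dnmt1 was not tested.

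Other genes of the methylation pathway were examined as lists of related function. None of the tested genes in these lists was called by edgeR between limbs at either time point, except Parp1 at 12 weeks with the replicate number as a block (adjusted p 0.0418). Of 11 further writers and their partners, 8 were above 0 and 3 below at 4 weeks (median 0.13), and 4 above and 7 below at 12 weeks (median -0.14). Of 9 genes that supply or regulate oxidation, 8 were below 0 at 4 weeks (median -0.38) and 4 at 12 weeks (median 0.08). Of 10 repair genes, 5 were below 0 at 4 weeks (median -0.16) and 7 at 12 weeks (median -0.19). Of 7 readers, which bind methylated DNA, 4 were below 0 at 4 weeks (median -0.21) and 1 at 12 weeks (median 0.27). Of 10 methyl donor genes, 8 were below 0 at 4 weeks (median -0.13) and 6 at 12 weeks (median -0.25).

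DESeq2, which called 4.24% of all transcripts at 12 weeks, called 2 genes of the 5 pathway lists there, both repair genes and both lower in DMM limbs. The lists held 11, 9, 10, 7 and 10 tested genes, so the calls were near the share over all transcripts. Parp1, which binds DNA breaks and recruits repair proteins, was at 71.6 ± 5.71 CPM in control limbs and 48.8 ± 6.36 CPM in DMM limbs (log2 fold change -0.54, SE 0.14, edgeR adjusted p 0.211, DESeq2 adjusted p 0.0229). Mbd4, a glycosylase that removes thymine opposite guanine at CpG sites, was at 14.9 ± 2.30 and 9.55 ± 1.38 CPM (log2 fold change -0.64, SE 0.18, edgeR adjusted p 0.224, DESeq2 adjusted p 0.0437). The next genes by unadjusted p at 12 weeks were Mthfd1 of folate metabolism (-0.39), the Tet-associated CXXC protein Cxxc5 (0.60), the histone demethylase Kdm1b (-0.48) and the chromatin remodeler Hells (-0.67), with edgeR adjusted p-values from 0.252 to 0.258.

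The marks that these enzymes place and remove were averaged over the 1108861 cytosines with at least 10 reads in all 24 DNA files. Oxidative bisulfite (oxBS) libraries read 5mC alone. Conventional bisulfite (BS) libraries read 5mC and 5hmC together, and 5hmC was taken as BS minus oxBS of the same sample, so that errors in the oxBS value move both marks in opposite directions. At 4 weeks the mean 5mC was 29.8%, 28.1% and 28.7% in control limbs and 28.6%, 27.7% and 28.1% in DMM limbs, with overlap. At 12 weeks it was 29.5%, 29.3% and 29.9% in control limbs and 28.3%, 29.1% and 28.5% in DMM limbs, without overlap. The difference was -0.74 percentage points at 4 weeks (exact permutation p 0.3, two-sided) and -0.92 points at 12 weeks (exact permutation p 0.1, the smallest that 3 against 3 allows). Leaving out 1 library gave -1.13 to -0.29 points at 4 weeks (-0.29 without control replicate 1) and -1.13 to -0.76 points at 12 weeks. When reads were pooled in place of weighting cytosines equally, the 4-week difference turned to 0.36 points. The 12-week difference was then -1.30 points, with an exact permutation p of 0.5, so the separation of the limbs depended on the weighting.

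For 5hmC, the control limbs at 4 weeks had means of 1.62%, 2.63% and 2.19% and the DMM limbs of 2.32%, 2.85% and 2.54%. At 12 weeks the means were 1.51%, 1.60% and 1.40% in control limbs and 2.30%, 1.73% and 1.98% in DMM limbs. All DMM samples were above all controls at 12 weeks (difference 0.50 points, exact permutation p 0.1), but not at 4 weeks (0.43 points, exact permutation p 0.3). With pooled reads the 12-week difference was 0.63 points with an exact permutation p of 0.5, so this separation also depended on the weighting. Leaving out 1 library gave 0.17 to 0.67 points at 4 weeks (0.17 without control replicate 1) and 0.35 to 0.63 points at 12 weeks. The deposited BS data of DMM replicate 1 at 12 weeks carry the number of another replicate, and were used under their label, so that BS and oxBS of this sample may not belong together. Without it the 12-week difference was 0.35 points, and 10 of the 10 loci described below were still higher for 5hmC (median 0.36 points). RNA and DNA came from different mice, so no correlation between RNA levels and these marks was computed.

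**Figure D3:**
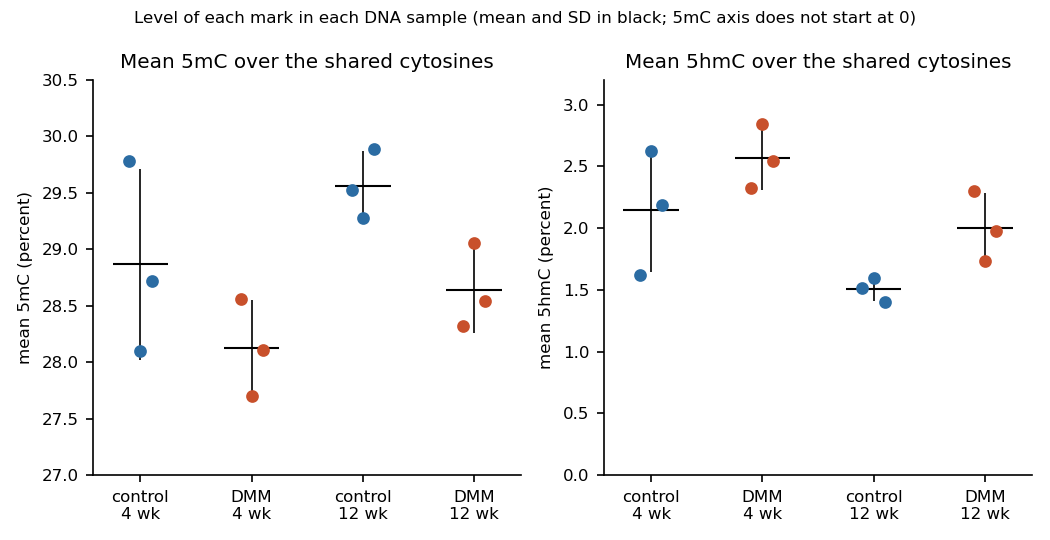
Mean 5mC (left, percent, axis from 27) and mean 5hmC (right, percent, axis from 0) over the shared cytosines in each DNA sample, 1 point per sample with the group mean and SD in black. With cytosines weighted equally, the DMM samples at 12 weeks lie below the controls for 5mC (28.3% to 29.1% against 29.3% to 29.9%) and above them for 5hmC (1.73% to 2.30% against 1.40% to 1.60%).

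Within the 10 loci, 1599 cytosines reached 10 reads in each of the 6 oxBS libraries at 4 weeks and 1319 did so at 12 weeks, with 696612 and 383142 reads in total. Most were unmethylated. By the median of the 6 libraries, 1225 of the 1599 were under 20% 5mC and 222 above 80%, and at 12 weeks 944 of the 1319 were under 20% and 241 above 80%. Locus means differed widely among the genes. Dnmt1 was the most methylated, at 46.3% to 56.0% over the 12 samples. Tet1 (30.0% to 33.3%) and Tet3 (27.6% to 33.1%) were next and overlapped, and Gadd45b was the lowest at 1.62% to 2.24%. Because other cytosines are covered at 4 and 12 weeks, locus means were compared only between limbs of a time point.

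**Figure D4:**
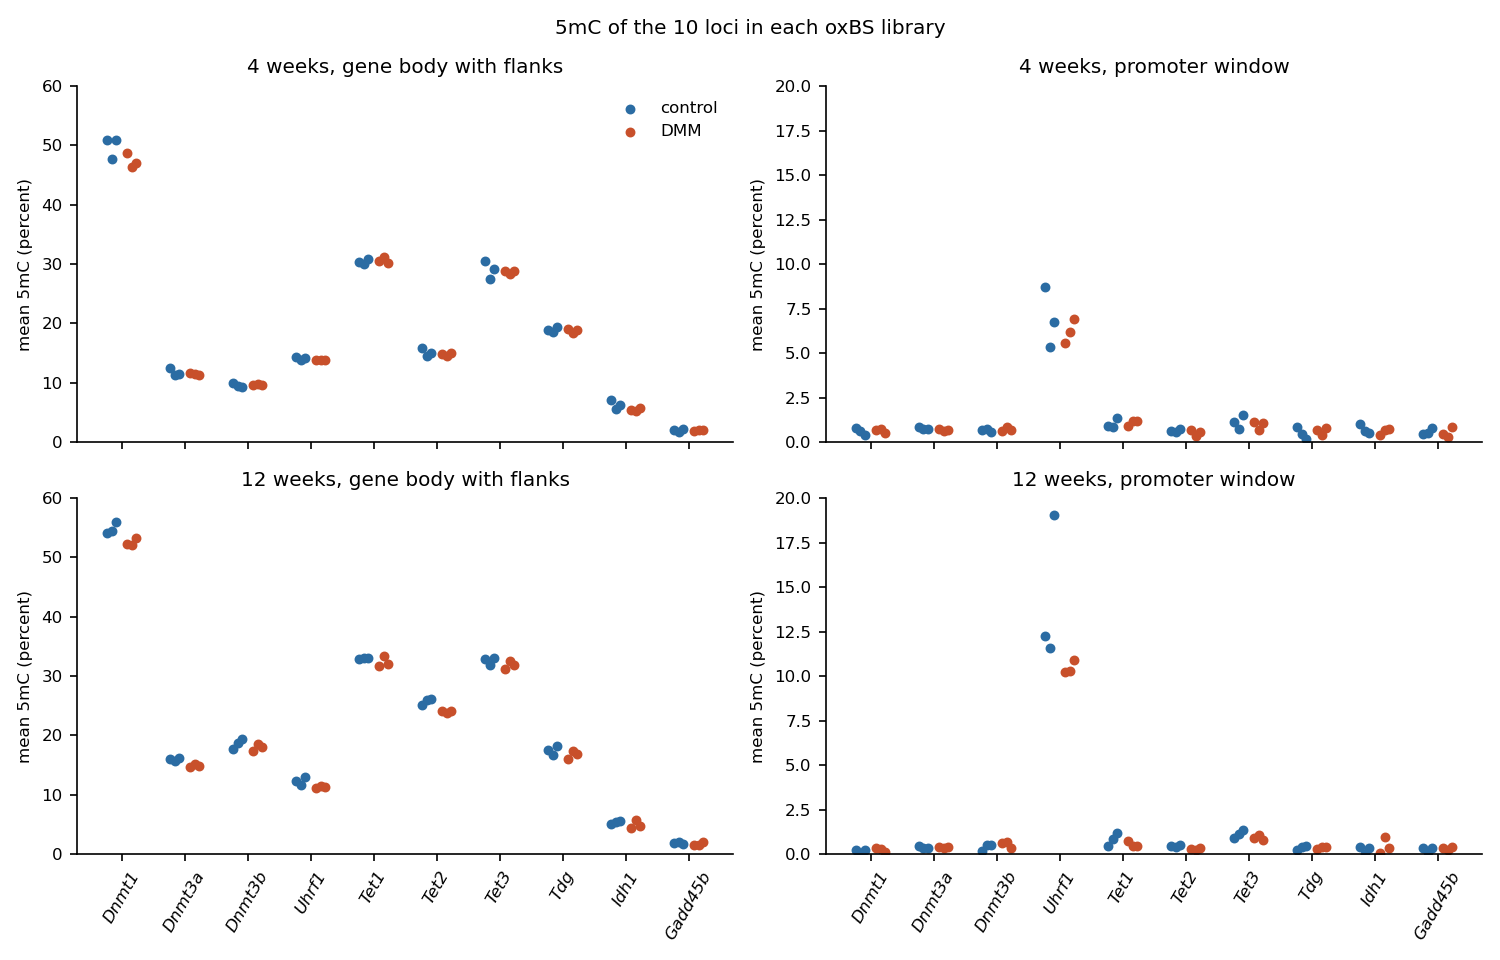
Mean 5mC (y axis, percent) of each gene body with flanks (left, axis to 60) and of each promoter window (right, axis to 20) in every oxBS library, at 4 weeks (top) and 12 weeks (bottom), control in blue and DMM in orange. Promoter windows lie at or under 1.52% for all genes but Uhrf1, which reaches 8.70% at 4 weeks and 19.1% at 12 weeks, while the body of Dnmt1 lies at or above 46.3%.

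In the window from 1000 bp before to 500 bp after the transcript start, 9 of the 10 genes were close to unmethylated. Their window means were 0.159% to 1.52% at 4 weeks and 0.0% to 1.33% at 12 weeks. For comparison, 0.530% to 0.742% of mitochondrial cytosines at 4 weeks and 0.284% to 0.351% at 12 weeks were read as methylated in the oxBS files, which marks the level at which a low value can no longer be told from incomplete conversion. The promoters of Dnmt1 and Tet1, whose RNA differed most between limbs, had window means of 0.064% to 0.767% and 0.442% to 1.34%, and a difference between limbs was not detectable in either. The Tet2 window at 12 weeks was at 0.439%, 0.418% and 0.537% in control limbs and 0.288%, 0.243% and 0.327% in DMM limbs. These groups did not overlap but lay close to the mitochondrial values.

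Uhrf1 was the exception to the low promoter methylation. Its window mean was 8.70%, 5.35% and 6.77% in control limbs and 5.57%, 6.16% and 6.93% in DMM limbs at 4 weeks, over 20 cytosines. At 12 weeks it was 12.3%, 11.6% and 19.1% in control limbs and 10.2%, 10.3% and 10.9% in DMM limbs, over 12 cytosines. The 12-week groups did not overlap, but the limma test over all promoter windows gave -3.83 points (SE 1.92) with an adjusted p of 0.538. Control replicate 3 (19.1%) stood apart from all other libraries and carried much of this difference. At 12 weeks limma called 0.323% of all promoter windows and 0 of the 10, and the share of windows without overlap was not computed. The methylated cytosines of this window lay at -521, -492, -491 and -471 bp from the start, and these 4 were at or above 20% in pooled control reads at each time point. None of these 4 differed between limbs at an unadjusted p under 0.05. The stretch that holds them, chr17:56302806-56302876 on GRCm38.p6 (plus strand), lies upstream of the gene and outside it, and 49.3% of it is repeat-masked. CpG dinucleotides with data are in capitals.
Uhrf1 upstream stretch: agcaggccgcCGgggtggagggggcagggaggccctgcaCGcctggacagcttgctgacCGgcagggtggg

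Averaged over the whole locus at 12 weeks, 5mC was lower in DMM limbs for all 10 genes, with a median difference of -0.72 percentage points. Over all 23758 loci tested, 73.8% were lower and the median was -0.42 points. With reads pooled over each locus, 8 of the 10 were lower (median -0.72). All 10 stayed lower when each library in turn was left out, but the median was -0.38 points without DMM replicate 1. limma called 6.94% of all loci at 12 weeks and 0 of the 10. The largest differences were those of Dnmt1, Tet2, Dnmt3a and Uhrf1, for which all DMM libraries lay below all controls, as did 26.5% of all loci, while 4.26% of loci had all DMM libraries above and none of the 10 did.

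Dnmt1 had locus means of 54.2%, 54.5% and 56.0% in control limbs and 52.3%, 52.1% and 53.2% in DMM limbs at 12 weeks, over 125 cytosines. The difference was -2.34 points (SE 0.90, unadjusted p 0.0355, limma adjusted p 0.162). Tet2 had 25.2%, 26.04% and 26.1% in control limbs and 24.2%, 23.9% and 24.2% in DMM limbs, over 63 cytosines all within the gene. Its difference was -1.72 points (SE 0.44, limma adjusted p 0.0658), and -2.11 points with an adjusted p of 0.0425 when at least 20 reads were required. In that setting limma called 6.89% of all 20858 loci. Dnmt3a differed by -1.07 points (SE 0.32, adjusted p 0.0926) from 15.98% ± 0.287 in control limbs, and Uhrf1 by -0.97 points (SE 0.37, adjusted p 0.159) from 12.3% ± 0.619. The loci of Dnmt3a and Uhrf1 each also overlap 2 other genes, and that of Dnmt1 overlaps 1.

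At 4 weeks 8 of the 10 loci were lower in DMM limbs, with a median difference of -0.30 points, against -0.33 points over all 24198 loci. These values depended on single libraries and on weighting. Without control replicate 1, 5 were lower (median -0.012 points), without control replicate 2 all 10 (median -0.50), without DMM replicate 2, 9 (median -0.20), and with pooled reads 6 (median -0.12). limma called 0 loci of the genome at 4 weeks (0.0%), with 860 at an unadjusted p under 0.05, and no locus of the 10 had limbs that did not overlap (2.18% of all loci were higher and 6.29% lower without overlap). Dnmt1 again had the largest difference, -2.47 points (SE 1.30, limma adjusted p 0.669), from locus means of 50.9%, 47.7% and 51.0% in control limbs and 48.7%, 46.3% and 47.1% in DMM limbs. Idh1 differed by -0.87 points (SE 0.39, adjusted p 0.669), and Tet1 by 0.17 points (SE 0.58, adjusted p 0.915).

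For 5hmC at 12 weeks, all 10 loci were higher in DMM limbs, with a median of 0.48 points (0.27 over all 23192 loci, of which 31.9% were lower). When reads were pooled over each locus, only 4 of the 10 were higher and the median was -0.15, so the direction for the group depended on the weighting. Without control replicate 3, 9 were higher with a median of 0.19 points. Dnmt3a, Tet2 and Gadd45b had all DMM samples above all controls, as did 11.7% of loci. Tet2 was at 2.60%, 2.22% and 1.40% in control limbs and 3.21%, 3.08% and 3.23% in DMM limbs (difference 1.10 points, SE 0.62, limma adjusted p 0.737). limma called 0 loci for 5hmC at 12 weeks (0.0%), with 1620 at an unadjusted p under 0.05. At 4 weeks, when limma also called 0 (0.0%, with 916 at an unadjusted p under 0.05), 6 of the 10 were higher (median 0.036 points). With pooled reads 9 were higher (median 0.37), without control replicate 1 4 (median -0.081) and without control replicate 3 3 (median -0.16), so no direction held for the group. Idh1 was higher without overlap, at 0.435%, 1.32% and 0.275% in control limbs and 1.45%, 1.51% and 1.99% in DMM limbs (0.97 points, SE 0.40, adjusted p 0.907), as were 6.65% of loci. Tet1 was lower without overlap, at 2.51%, 1.97% and 1.80% in control limbs and 1.25%, 0.960% and 1.66% in DMM limbs (-0.80 points, SE 0.43, adjusted p 0.907). That applied to 2.4% of loci.

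Single cytosines were compared with a likelihood ratio test on the reads pooled by limb, and called at a difference of at least 25 points with a q-value under 0.05 over all cytosines. At 4 weeks 0 of the 1599 cytosines in the 10 loci were called (0.000554% of 1444973 in the genome, and 0.000346% called lower), with 109 at an unadjusted p under 0.05, as were 8.02% of all cytosines. At 12 weeks 4 of 1319 were called (0.227% of 1273121), and all 4 were lower in DMM limbs, as were 2548 of the 2892 called in the genome (0.2% of those tested). They lay in Dnmt1 and Dnmt3a. This test takes reads of 1 limb as independent. When the spread between libraries was added as overdispersion, no cytosine of the 10 loci or of the genome was called at either time point. Unadjusted p-values of that test were under 0.05 for 6 cytosines of the loci at 4 weeks (0.567% of all cytosines) and 19 at 12 weeks (1.97% of all cytosines). The overdispersion test rests on 6 libraries and has few degrees of freedom. Over this many cytosines it can hardly call any site, so the absence of calls does not show that spread between libraries undid them.

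The called cytosines of Dnmt1 lay 5 bp apart in intron 1 of a 39-exon transcript, 9205 and 9210 bp downstream of the start. The window is shown because both sites sit between further covered CpG dinucleotides. It is chr9:20943704-20943839 on GRCm38.p6, plus strand and thus opposite to the gene, with CpG dinucleotides that have data in capitals.
Dnmt1 intron 1: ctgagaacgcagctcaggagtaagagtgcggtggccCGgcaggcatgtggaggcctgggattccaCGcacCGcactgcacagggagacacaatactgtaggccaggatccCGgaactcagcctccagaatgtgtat

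At 12 weeks the site 9210 bp from the Dnmt1 start (position 20943769) was methylated at 68.6%, 68.4% and 71.4% in control limbs and 42.9%, 39.3% and 41.5% in DMM limbs. The site at 9205 bp (position 20943774) was at 66.7%, 71.1% and 82.9% in control limbs and 42.0%, 32.1% and 51.2% in DMM limbs. All DMM libraries lay below all controls at both. These sites and those named below were chosen by their difference or p in the same libraries. Separation of the limbs at the time point of choice was therefore largely built in and is no further support. In pooled reads the differences were -27.4 points (q 0.00171) and -30.0 points (q 3.45e-04), each over 305 reads. At this distance on the same strand both sites can share most of their reads, so they are not independent. With overdispersion the q-value was 0.907 for both, at unadjusted p-values of 0.00897 and 0.0104 in that test. They were not called when both strands were merged (-20.2 and -24.8 points) or without control replicate 2 and DMM replicate 1 together, where the differences were as large (-29.2 and -29.8 points) but the q-values were 0.0899 and 0.0732.

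At 4 weeks the same Dnmt1 sites differed by -1.29 and -2.38 points in pooled reads (q 1.0 and 0.933), and by -12.0 and -12.3 points with libraries weighted equally. Their levels were 58.9%, 36.9% and 55.7% in control limbs and 54.2%, 25.8% and 35.6% in DMM limbs for the site at 9210 bp, and 59.6%, 37.5% and 54.1% against 51.7%, 25.8% and 37.0% for that at 9205 bp. The groups overlapped. Just short of the threshold at 12 weeks in the same intron were cytosines at position 20943740 (-24.1 points), 20943815 (-24.7 points) and 20944236 (-22.1 points) of chromosome 9.

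**Figure D5:**
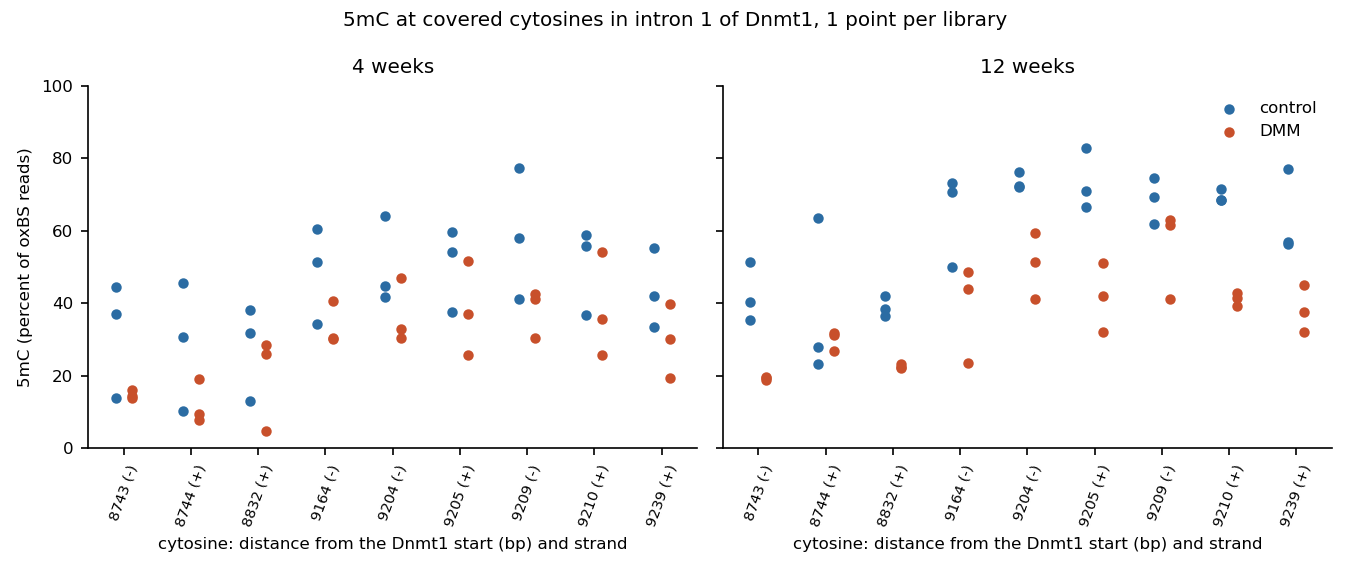
5mC (y axis, percent of oxBS reads) at 9 covered cytosines of Dnmt1 intron 1, ordered by distance from the transcript start with the strand in parentheses (x axis, bp), 1 point per library, control in blue and DMM in orange. At 12 weeks the DMM libraries at 9205 bp (32.1% to 51.2%) and 9210 bp (39.3% to 42.9%) lie below all controls, and at 4 weeks the limbs overlap at both.

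In Dnmt3a, the called cytosines lay in intron 4 and in the last of 23 exons, in its noncoding part. The intron window is chr12:3866946-3867076 and the exon site chr12:3909354-3909383, both on GRCm38.p6 and the plus strand, with the CpG dinucleotides that have data in capitals.
Dnmt3a intron 4: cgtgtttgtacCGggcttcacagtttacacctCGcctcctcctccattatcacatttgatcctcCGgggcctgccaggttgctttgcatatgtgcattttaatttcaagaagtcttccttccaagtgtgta
Dnmt3a exon 23: tgaggcccaccctcCGggccagtcactctt

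At position 3867011 in Dnmt3a intron 4 (minus strand), 5mC at 12 weeks was 53.8%, 55.6% and 48.3% in control limbs and 20%, 34.5% and 28.3% in DMM limbs, without overlap. The pooled difference was -28.5 points (q 0.00106, 293 reads), and it was not called without DMM replicate 1 (-22.1 points, q 0.234), without that sample and control replicate 2 together (-21.2 points, q 0.376) or with libraries weighted equally (-24.98 points, just under the threshold of 25). At 4 weeks the site was at 40.9%, 27.8% and 40.5% in control limbs and 26.7%, 15.0% and 19.2% in DMM limbs, also without overlap (-9.64 points in pooled reads, q 0.600, and -16.1 points with libraries weighted equally). The share of all cytosines whose limbs did not overlap was not computed, so this separation has no background beside it.

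At position 3909369 in Dnmt3a exon 23 (minus strand), the 12-week levels were 88.2%, 46.7% and 83.3% in control limbs and 21.8%, 40.0% and 57.1% in DMM limbs, which overlapped. The pooled difference was -43.6 points (q 0.00105), with as few as 10 reads in a library and 129 in all. It was not called without control replicate 1 (-36.3 points, q 0.0683), without DMM replicate 1 (-24.0 points, q 0.680) or without control replicate 2 and DMM replicate 1 together (-35.7 points, q 0.262). With libraries weighted equally the difference was -33.1 points. The same site had the smallest p of the 10 loci at 4 weeks, with 81.8%, 69.4% and 51.9% in control limbs and 49.1%, 30.0% and 25.7% in DMM limbs (-26.5 points, q 0.270). All DMM libraries were below all controls there. The site was called without DMM replicate 1 (-38.9 points, q 0.0318), where 0.0136% of all cytosines were called. It was also called by the Cochran-Mantel-Haenszel test with the replicate number as a block (q 0.0413), which called 0.00367%. Both shares were above the 0.000554% called by the main test at 4 weeks. Both Dnmt3a sites had a q-value of 0.907 at 12 weeks with overdispersion. The unadjusted p-values of that test were 0.00801 for the intron 4 site and 0.0672 for the exon 23 site.

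The next cytosines by p at 4 weeks were in Idh1 and downstream of Dnmt3a. In intron 1 of Idh1, 2793 bp from the start (chromosome 1, position 65176349), 5mC was 58.3%, 41.0% and 46.4% in control limbs and 25.6%, 26.3% and 32.7% in DMM limbs (-18.3 points, q 0.341). It was called without control replicate 2 (-25.7 points, q 0.0286), a sample without which 5 of the 1599 cytosines in the 10 loci and 0.21% of all cytosines were called at 4 weeks. At 12 weeks the Idh1 site overlapped between limbs (-10.3 points, q 0.662, and -5.41 points with libraries weighted equally). At position 3917600 in the flank downstream of Dnmt3a, levels were 54.0%, 38.9% and 45.9% in control limbs and 31.9%, 20.5% and 30.6% in DMM limbs at 4 weeks (-13.9 points, q 0.339), and the difference was -4.55 points at 12 weeks (-2.50 with libraries weighted equally). The Idh1 site lies in chr1:65176284-65176414 (GRCm38.p6, plus strand), shown with the CpG dinucleotides that have data in capitals because Idh1 is the only other gene with a site among the leading ones.
Idh1 intron 1: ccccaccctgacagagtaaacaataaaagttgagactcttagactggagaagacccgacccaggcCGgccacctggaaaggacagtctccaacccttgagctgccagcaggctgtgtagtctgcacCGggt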

How the data were processed

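RNA was measured in 12 libraries and DNA in 24, from 4 groups of 3 samples per assay (limb by time point). The authors deposited a raw count per RefSeq transcript and library, made with STAR and featureCounts on mm10. The labels describe a poly(A) TruSeq library and the study's methods a low-input SMART-Seq library, and whether counting used strand was not given in the sources used here. The authors also deposited, for each BS and oxBS library, the percent of C and of T reads and the coverage of every CpG cytosine with at least 10 reads after Bismark. The percent values were turned back into read numbers. At 12 weeks, the DNA titles of 1 control (replicate 2) and 1 DMM sample (replicate 1) are written in another style, and the DNA comparisons were repeated without both, a choice made after the data were seen.

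Counts were fitted with edgeR 4.0.16 (TMM, filterByExpr, robust quasi-likelihood, R 4.3.3) per time point over all transcripts, and over all 12 libraries for the interaction and the time comparisons. DESeq2 1.42.0 was an alternative. Locus means (at least 10 cytosines, or 5 in a promoter window) were fitted with limma 3.58.1 over all RefSeq genes. Symbols came from the RefSeq annotation for 29447 of 30048 transcripts. All of 796 cytosines checked were CpG in the reference. Methods were tested on simulated data. For single cytosines the simulated reads held no spread between libraries of a limb, so that simulation says nothing about the effect of such spread. Alternatives were other size factors, filters, coverage minimums, weightings, a replicate block and leaving out each library.

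The 10 genes, the pathway lists and the marker lists were chosen with earlier results of these data known. Of other pathway genes, those called by edgeR or DESeq2 were named, filled to 6 by the smallest edgeR p. Of cytosines, those called were named, or the 3 with the smallest p. For each of the 10 genes, the 3 genes with the most similar levels were named.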

Additional observations from a re-analysis of the deposited data

How the results depend on the processing

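Of the values for single genes, loci and cytosines under the alternatives, 554 kept direction and side of the threshold, 10 passed it newly, 25 no longer passed and 11 changed sign. When 1 library was left out, the log2 fold change of Tdg at 4 weeks ranged from -0.14 to 0.080, and at 12 weeks that of Dnmt3b from -0.36 to 0.038, of Tet2 from -0.012 to 0.17 and of Tet3 from -0.14 to 0.055. The interaction of Uhrf1 ranged from -0.18 to 0.44. The 5mC difference of Dnmt1 at 12 weeks was 0.091 points in the promoter window alone. The cause was not tested.

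Of the 10 genes, edgeR called 0 between limbs and DESeq2 1 at each time point, and DESeq2 called 1 in control limbs over time. Leaving out 1 library gave 0 to 1 called genes at 12 weeks, 0 to 2 in control limbs over time and 1 to 5 in DMM limbs over time. Where 1 gene was called at 12 weeks, 4.04% of all transcripts were called, and where 2 were called in control limbs, 21.4% were. For DMM limbs over time, the shares of all transcripts with 1 library left out are not given here. Called cytosines at 12 weeks numbered 4, and 2 to 7 when 1 library was left out, 8 at 20 points, 0 with overdispersion, 2 with strands merged, 5 with libraries weighted equally (3 of the 4, and 2 others in Dnmt1) and 1 without control replicate 2 and DMM replicate 1. That 1 was none of the 4 but position 20944236 in an intron of Dnmt1 (-25.2 points, q 0.0263). Over all cytosines, the share called at 12 weeks was 0.227%, and 0.129% to 0.409% when 1 library was left out. It was 0.674% at 20 points, 0.22% with strands merged, 0.212% with libraries weighted equally and 0.102% without control replicate 2 and DMM replicate 1. At 4 weeks leaving out 1 library gave 0 to 5 called cytosines in the loci, and 0.000344% to 0.21% of all cytosines. Requiring 20 reads gave 1 called locus of the 10 for 5mC at 12 weeks, where 6.89% of all loci were called. Pooling reads turned the mean 5mC difference at 4 weeks to 0.36 points. With pooled reads the 12-week differences of mean 5mC and mean 5hmC each had an exact permutation p of 0.5.

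Left and right knees belonged to the same animals, but no source says which pools share them, and same-numbered deviations correlated at 0.36, -0.33 and 0.08 at 4 weeks and -0.55, 0.26 and -0.25 at 12 weeks, so the numbers were not taken as pairs. Not every sample correlated best with its own number. With a replicate block, 1 of the 10 genes (Dnmt1, adjusted p 0.0352) was called by edgeR at 12 weeks, where 3.49% of transcripts were called. The Cochran-Mantel-Haenszel test with the replicate as block called 1 cytosine of the loci at 4 weeks, that in exon 23 of Dnmt3a, and 0.00367% of all cytosines. Of the pathway and marker lists the block called, at 12 weeks, Parp1, Itgam and Dcn, 3 erythroid, 3 chondrocyte and 3 osteoblast genes, none of them called by edgeR without it, and at 4 weeks 15 muscle genes (1 without it) and Col9a2. It changed no other call of the 10 genes or their loci. Over all loci, 5mC calls at 12 weeks numbered 1649, 641 with the block and 0 with pooled reads. As few as 10 reads covered a called site in a library, and requiring 20 reads left 3 of the 4 cytosine calls at 12 weeks. In that setting 0.161% of all cytosines were called.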

Other observations

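For each of the 10 genes, the genes with the most similar RNA levels were sought among 10932 or 10933 others with a mean of at least 5 CPM, by Pearson correlation of log2 CPM over the 12 libraries. The libraries are shared by all genes and fall into 4 groups, so the values describe these libraries. Uhrf1 had the closest match, with Hk3, the hexokinase of myeloid cells (r = 0.995), then Unc13d and Mapkapk3. Tet3 was closest to Frmd8 (0.982), Acd and Rnps1. Dnmt1 was closest to Hjurp, a histone chaperone of the centromere (0.978), then Plcg2 and Plagl2. Tdg was closest to Rffl (0.974), Tspan14 and Mcph1, and Idh1 to the macrophage membrane gene Ms4a7 (0.965), Clec4n and Tmem123. Gadd45b was closest to Syde1 (0.950), Ncmap and Pcbp3. Dnmt3a was closest to Atp1b2 (0.940), Atg9a and Gys1, and Tet1 to Slitrk6 (0.938), Olfml3 and the laminin chain Lama4. Tet2 was closest to Ptprd (0.936), the hyaluronan receptor Cd44 and Myo5a. Dnmt3b had the weakest match, Plxnd1 (0.876), then Abcg1 and Sirpa.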
